A study of Mus musculus with 3 samples.

Results

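Immunoglobulin heavy variable (Ighv) genes are the V segments of the heavy chain locus, and their use was read from the gene counts of 3 Cdk6 KM/KM leukemia cell lines. The 115 genes described here are all rows whose symbol begins with Ighv and whose annotated type is not a pseudogene, of 50686 rows in the count table. Of these, 113 carry the type IG_V_gene. The remaining 2 genes, Ighv1-13 and Ighv5-8, carry the type IG_LV_gene and overlap a pseudogene of the same name on the other strand. A further 70 Ighv rows are annotated as pseudogenes and are given only beside the genes.

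The lines were grown out from C57BL/6 bone marrow cells transduced with a retrovirus carrying BCR-ABLp185 and GFP, and all 3 are homozygous for K43M, a kinase-inactive form of the cell cycle kinase CDK6. The labels call the cells Pre/Pro-B-cells, and polyA RNA was read as 50-base single ends. They do not say whether the lines came from separate animals, or how many transformed cells founded each line, so that spread and p-values describe these 3 lines only. Wildtype and knockout lines of the same study were not used here, and no comparison between genotypes was made.

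A B cell precursor builds its heavy chain gene by joining one D segment to one J segment and then one V segment to that DJ, with the RAG1 and RAG2 recombinase cutting the DNA. An allele joined in frame gives a µ heavy chain that pairs with the surrogate light chain to form the pre-B cell receptor. The joined V segment is transcribed from its own promoter together with the constant region, and a line grown from few founder cells can therefore show few V segments. Unjoined V segments can also be transcribed as germline RNA before they recombine.

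Labelled identity was checked first. All 13 B-lymphoid precursor markers were detected in every line, with summed levels of 4392, 4877 and 4540 CPM (counts per 1000000 counts of the scaled library) in lines 1, 2 and 3. They include Pax5, the B lineage factor, at 789, 849 and 805 CPM, and Igll1, a surrogate light chain gene, at 585, 657 and 542 CPM. The 8 T cell markers summed to 0.369, 0.152 and 0.550 CPM, with 6, 7 and 4 of them at 0. The 6 myeloid markers summed to 1.75, 2.08 and 3.97 CPM, with 4, 4 and 1 at 0, and the 5 erythroid markers to 2.17, 4.31 and 6.32 CPM. The point mutation K43M cannot be read from gene counts.

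The results turn on 4 genes and 1 pseudogene, all on the minus strand of chromosome 12 in mm10. Ighv2-3 (ENSMUSG00000094164.2, 113611187 to 113611617) led lines 1 and 3, and Ighv1-55 (ENSMUSG00000095589.2, 115208095 to 115208591) led line 2. Ighv14-2 (ENSMUSG00000095583.1, 113994469 to 113994898) and Ighv1-74 (ENSMUSG00000094124.5, 115802648 to 115803080) followed in lines 1 and 3. The pseudogene Ighv4-2 (ENSMUSG00000103271.1, 114013144 to 114013606) was counted in line 2. The reference sequences below are those of the Gencode transcripts, not of the lines' own rearranged genes. For the 4 genes they give the last 300 bases of the V exon, 5′ to 3′, which code for most of the variable domain, at chr12:113611187-113611486 for Ighv2-3, chr12:113994469-113994768 for Ighv14-2, chr12:115802648-115802947 for Ighv1-74 and chr12:115208095-115208394 for Ighv1-55. Capitals mark the Tyr-Tyr-Cys codons that precede the junction with D. For Ighv4-2, 93 bases around its first in-frame stop codon, TGA at codon 65 in capitals, are given, at chr12:114013254-114013346.
Ighv2-3: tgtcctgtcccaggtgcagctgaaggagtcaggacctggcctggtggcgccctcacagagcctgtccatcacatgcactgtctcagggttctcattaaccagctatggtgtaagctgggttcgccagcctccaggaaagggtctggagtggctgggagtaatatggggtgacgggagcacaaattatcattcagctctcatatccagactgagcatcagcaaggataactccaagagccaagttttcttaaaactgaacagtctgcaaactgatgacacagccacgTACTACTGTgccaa
Ighv14-2: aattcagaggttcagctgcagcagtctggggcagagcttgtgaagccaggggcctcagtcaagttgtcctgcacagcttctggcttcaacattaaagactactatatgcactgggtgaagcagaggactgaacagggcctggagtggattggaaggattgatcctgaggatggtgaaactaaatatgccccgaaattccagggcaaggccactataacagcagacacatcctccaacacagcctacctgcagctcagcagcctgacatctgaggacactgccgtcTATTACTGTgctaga
Ighv1-74: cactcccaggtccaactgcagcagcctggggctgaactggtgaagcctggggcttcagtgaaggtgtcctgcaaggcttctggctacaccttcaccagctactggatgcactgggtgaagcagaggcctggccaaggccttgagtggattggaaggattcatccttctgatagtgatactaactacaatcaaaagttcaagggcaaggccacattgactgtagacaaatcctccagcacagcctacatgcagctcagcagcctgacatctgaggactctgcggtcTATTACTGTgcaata
Ighv1-55: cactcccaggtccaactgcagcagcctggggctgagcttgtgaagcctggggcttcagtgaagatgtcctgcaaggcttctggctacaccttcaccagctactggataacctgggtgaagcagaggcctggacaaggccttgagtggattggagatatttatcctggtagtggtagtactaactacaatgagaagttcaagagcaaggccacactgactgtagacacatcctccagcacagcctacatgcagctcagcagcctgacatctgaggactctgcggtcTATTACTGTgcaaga
Ighv4-2: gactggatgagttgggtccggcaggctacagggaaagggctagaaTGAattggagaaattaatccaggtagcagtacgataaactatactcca

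None of the 4 genes has an in-frame stop codon in this exon. Aligned over the whole V exon, Ighv1-74 and Ighv1-55 were identical at 92.1% of positions. Ighv14-2 matched Ighv1-74 at 80.7% and Ighv1-55 at 79.3%, whereas Ighv2-3 matched the other 3 genes at 53.9% to 56.1%. Ighv4-2 was 58.6% to 60.6% identical to each of the 4 genes. Leading genes of lines 1 and 3 on the one hand and of line 2 on the other are therefore far apart in sequence, at 56.1% identity between Ighv2-3 and Ighv1-55.

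Ighv transcripts were rare in all 3 lines. Line 1 held 375 counts on the 115 genes of 21569845 counts in the library, line 2 held 184 of 19633463, and line 3 held 486 of 25773221. Scaled by effective library size, the summed level was 17.3 CPM in line 1 (exact 95% Poisson interval 15.6 to 19.1), 9.32 CPM in line 2 (8.02 to 10.8) and 19.1 CPM in line 3 (17.4 to 20.9). Line 2 lay below the other 2 lines, whose intervals overlapped each other and not that of line 2. The mean was 15.2 ± 5.19 CPM (SD, n = 3). These intervals, and those of all shares below, cover counting error only, since reads that are PCR copies are not separate molecules. In bulk RNA, fewer cells that express a V gene and less of its RNA per cell cannot be told apart.

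With the pseudogenes added, the order of the lines changed. Pseudogenes held 20 counts in line 1, 329 in line 2 and 42 in line 3, which is 5.06%, 64.1% and 7.95% of all Ighv counts of the line. The sum over genes and pseudogenes was 18.2, 26 and 20.7 CPM, so that line 2 was the lowest of the lines over the genes and the highest over all Ighv rows. The 1 row behind this was Ighv4-2, with 321 counts in line 2 and 0 in lines 1 and 3. All other pseudogenes together had 20, 8 and 42 counts.

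**Figure D1:**
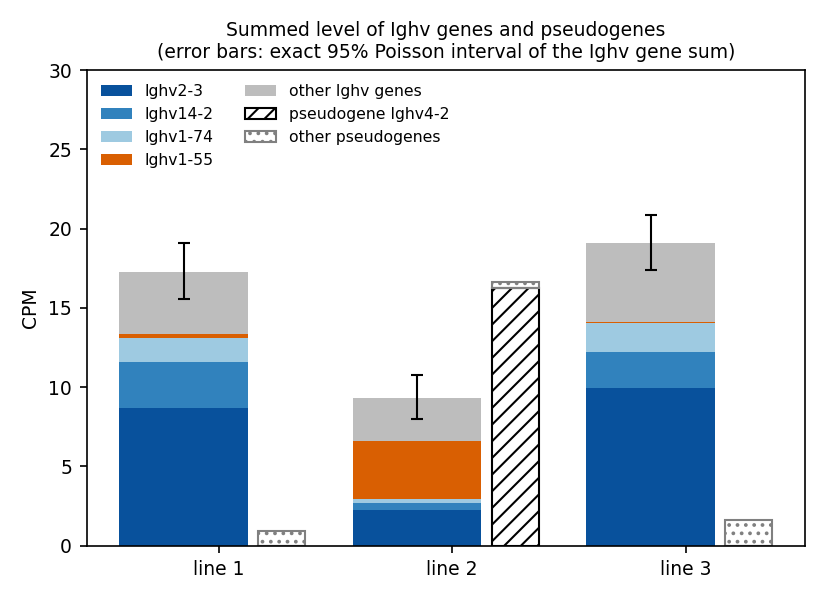
Summed level of Ighv genes and, in the narrow bars, of Ighv pseudogenes in CPM for each of the 3 Cdk6 KM/KM lines, with the 4 genes named in the text as coloured segments and the exact 95% Poisson interval of the gene sum as error bars. The gene sum is lowest in line 2 (9.32 CPM), where the pseudogene Ighv4-2 alone reaches 16.3 CPM.

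One gene took the largest share of Ighv counts in each line. Ighv2-3 held 188 of 375 counts in line 1, or 50.1% (exact Clopper-Pearson 95% interval 45 to 55.3), and 254 of 486 in line 3, or 52.3% (47.7 to 56.8). In line 2 the leader was Ighv1-55, with 73 of 184 counts, or 39.7% (32.6 to 47.1), and Ighv2-3 came next with 44 counts, or 23.9%. The next gene after the leader was Ighv14-2 in line 1, with 64 counts or 17.1%, and in line 3, with 58 counts or 11.9%. The 3 highest genes of each line together held 75.7% (71.1 to 80.0), 71.2% (64.1 to 77.6) and 73.7% (69.5 to 77.5). Between lines the leader's share thus ranged from 39.7% to 52.3% with a mean of 47.4% ± 6.74 (SD, n = 3). Its interval in line 2 overlapped that of line 1 and not that of line 3. The share of the top 3 genes had overlapping intervals in all lines. Annotated exons of the 46 genes with a count span 347 to 461 bases, so that shares of counts and shares of transcripts per length are close.

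**Figure D2:**
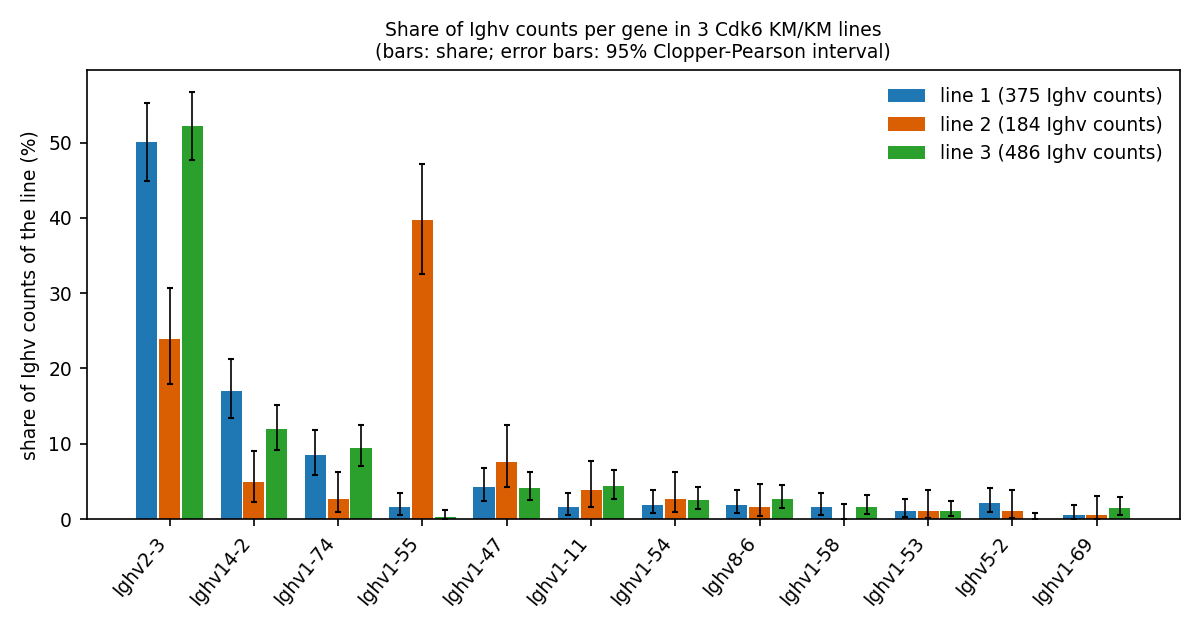
Share of the line's Ighv counts in percent for the 12 tested genes, those with 10 or more counts in sum, with bars for lines 1, 2 and 3 and 95% Clopper-Pearson intervals. Ighv2-3 stands highest in lines 1 and 3 (50.1% and 52.3%) and Ighv1-55 in line 2 (39.7%), while Ighv1-55 is at 0.206% in line 3.

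Clonality was put into 2 numbers per line. The effective number of genes, the inverse of the summed squared shares, is the number of equally used genes that would give the same concentration. It was 3.42 in line 1, 4.40 in line 2 and 3.31 in line 3, with a mean of 3.71 ± 0.603 (SD, n = 3). Corrected for the finite number of counts, it was 3.45, 4.49 and 3.32. Shannon clonality runs from 0 for equal use of the genes with a count in the line to 1 for a single gene. Those genes numbered 30, 26 and 29, so its base differs between the lines. It was 0.439, 0.363 and 0.437, with a mean of 0.413 ± 0.0432 (SD, n = 3). Over the Ighv genes line 2 was thus the least concentrated on both measures, but this order turned with the rows counted. With Ighv2-3 left out, line 2 was the most concentrated, with effective numbers of 6.10, 3.41 and 7.80. With pseudogenes added, its effective number was 2.38, the lowest of the lines, with 62.6% of all Ighv counts on Ighv4-2.

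Behind the leaders stood a tail of low counts. At least 1 count was found for 30 genes in line 1, 26 in line 2 and 29 in line 3, of which 17, 18 and 13 had 1 or 2 counts. When each line was thinned to 184 Ighv counts, the depth of line 2, the mean number of genes with a count was 22.6, 26 and 20.8, so line 2 had more genes at equal depth than the others. Genes at 0 numbered 85, 89 and 86. With 3 counts taken as the limit that a count of 0 allows, a gene at 0 could have a level of up to 0.138, 0.152 and 0.118 CPM, or 0.8%, 1.63% and 0.617% of the line's Ighv counts. Use of such a gene below that limit cannot be told from none at this depth.

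**Figure D3:**
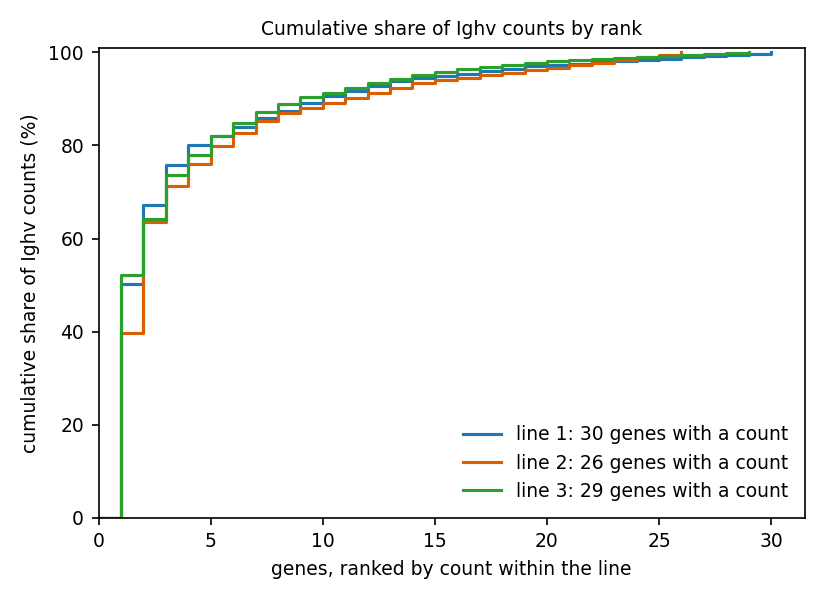
Cumulative share of Ighv counts in percent against genes ranked by count within each line, as steps for lines 1, 2 and 3. Line 2 starts lower, at 39.7% for its first gene against 50.1% and 52.3%, and after 3 genes the lines lie between 71.2% and 75.7%.

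All 115 genes can be accounted for. In all 3 lines 69 genes were at 0, and 46 had a count in at least 1 line. A count in every line was found for 12 genes, and 7 of them, Ighv2-3, Ighv14-2, Ighv1-74, Ighv1-47, Ighv1-11, Ighv1-54 and Ighv8-6, had 3 or more counts in every line. Another 19 genes were counted in exactly 1 line. The 34 genes with a count that did not reach 10 counts over the lines were not tested, and they held 89 of 1045 Ighv counts (8.52%). The highest of these was Ighv1-72, with 2, 1 and 5 counts.

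Whether a gene's level differed between the lines was tested over every gene that reached 10 counts when the lines were summed, by a chi-square test of homogeneity of the counts against the effective library sizes with Benjamini-Hochberg adjustment. This test compares 3 libraries and not conditions. It weighs counting error only, so genes with many counts can pass on small differences. Of the 12 Ighv genes tested, 6 passed an adjusted p of 0.05, or 50.0%, whereas 9341 of all 13974 genes tested passed, or 66.8%. The difference between these shares was not tested. Without line 2, 1 of 8 tested Ighv genes passed, against 54.5% of all genes tested. Without line 1, 4 of 8 passed, against 54.3% of all genes, and without line 3, 4 of 9 passed, against 47.1%. After 1 CPM was added to each level, the median log2 distance between the highest and the lowest line was 0.42 over the 12 Ighv genes. Over all genes tested it was 0.32. Adding 1 CPM shrinks the distance of genes below that level, where most of the 12 Ighv genes lay. These medians therefore do not give fold differences, and ratios of the genes that passed follow below.

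Ighv2-3, a member of the Ighv2 family, had 188, 44 and 254 counts in lines 1, 2 and 3, or 8.66, 2.23 and 9.97 CPM. Lines 1 and 3 were close and line 2 was low. The level was 3.89-fold higher in line 1 than in line 2 (95% interval 2.79 to 5.53) and 4.47-fold higher in line 3 than in line 2 (3.24 to 6.31), with an adjusted p of 8.8e-22 by the chi-square test. Between lines 3 and 1 the ratio was 1.15 (0.95 to 1.40).

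Ighv14-2 followed the same order of high and low lines, with 64, 9 and 58 counts or 2.95, 0.456 and 2.28 CPM. Line 1 exceeded line 2 by 6.47-fold (3.20 to 14.8) and line 3 exceeded line 2 by 4.99-fold (2.46 to 11.5), with an adjusted p of 7.5e-08 by the chi-square test. The ratio of line 1 to line 3 was 1.29 (0.893 to 1.88), an interval that holds 1.

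Ighv1-74, one of the genes farthest from the D segments, had 32, 5 and 46 counts, or 1.47, 0.253 and 1.81 CPM. Line 2 was again the low line, by 5.82-fold against line 1 (2.25 to 19.1) and 7.13-fold against line 3 (2.84 to 23.0), with an adjusted p of 2.3e-05 by the chi-square test. Lines 3 and 1 differed by a ratio of 1.23 (0.763 to 1.99).

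Ighv1-55 showed the opposite order. Its counts were 6, 73 and 1, or 0.276, 3.70 and 0.0393 CPM, and line 2 stood far above the other 2 lines. The ratio was 13.4 for line 2 over line 1 (5.86 to 37.6) and 94.2 for line 2 over line 3 (16.4 to 3771), with an adjusted p of 8.3e-32 by the chi-square test. As line 3 had a single count, only the lower bound of the last ratio is informative.

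Of the 2 other genes that passed, Ighv1-11 was highest in line 3 and Ighv5-2 in line 1. Ighv1-11 had 6, 7 and 21 counts (adjusted p = 0.026, chi-square test), and line 3 exceeded line 1 by 2.98-fold (1.16 to 9.03). Ighv5-2, the nearest of the 115 genes to the D segments, had 8, 2 and 0 counts (adjusted p = 0.0068, chi-square test). Line 1 was 3.13-fold higher than a floor of 3 counts in line 3, a ratio that leaves out the counting error of line 1. Both genes rest on few counts. Between lines 1 and 3 alone Ighv1-11 also passed, whereas Ighv5-2 and Ighv1-55 had too few counts there to be tested.

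The other 6 tested genes did not pass. Ighv1-47 had 16, 14 and 20 counts, or 0.737, 0.709 and 0.785 CPM (mean 0.744 ± 0.0384, SD, n = 3), and was the most even of the 12 genes, with ratios between lines of 1.04 to 1.11 whose intervals reached from 0.475 to 2.37. Its adjusted p was 0.96 by the chi-square test. In line 2 this steady level made Ighv1-47 the third gene in rank, with 7.61% of the Ighv counts. Ighv1-54 had 7, 5 and 12 counts, Ighv8-6 had 7, 3 and 13, Ighv1-53 had 4, 2 and 5, and Ighv1-69 had 2, 1 and 7. For Ighv1-58, with 6, 0 and 8 counts, the adjusted p was 0.074 by the chi-square test and 0.035 by an exact multinomial test.

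Lines 1 and 3 therefore resembled each other in which genes were used, and line 2 stood apart. The Morisita-Horn index, which is 0 for no shared use and 1 for equal shares, was 0.991 between lines 1 and 3, 0.548 between lines 1 and 2, and 0.531 between lines 2 and 3. With Ighv2-3 left out it was 0.937, 0.257 and 0.202, and with pseudogenes added 0.991, 0.142 and 0.138. By mere presence of a count the lines differed less, with 19 genes shared by lines 1 and 3 (63.3% of line 1 and 65.5% of line 3), 16 by lines 1 and 2 (53.3% and 61.5%) and 16 by lines 2 and 3 (61.5% and 55.2%). These indices are descriptions of 3 pairs of lines, without a test.

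The 111 genes other than the 4 named ones summed to 85, 53 and 127 counts, or 3.92 CPM (exact 95% Poisson interval 3.13 to 4.84), 2.68 CPM (2.01 to 3.51) and 4.99 CPM (4.16 to 5.93). This was 22.7%, 28.8% and 26.1% of the Ighv counts of lines 1, 2 and 3, shares with overlapping intervals, while the CPM intervals of lines 2 and 3 did not overlap. In line 2 the 4 genes together held 71.2%, close to the 77.3% and 73.9% of lines 1 and 3, although the gene that led was another one.

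V genes are grouped into families by sequence, and the symbol's first number names the family. Of 16 families, 7 had a count. The 9 genes of Ighv2 held 50.9%, 23.9% and 52.3% of Ighv counts, nearly all of them on Ighv2-3. Ighv1, the largest family with 54 genes (47.0% of the 115), held 26.1% in line 1 (21.8 to 30.9), 62.0% in line 2 (54.5 to 69.0) and 30.7% in line 3 (26.6 to 35.0), and 27 of its genes had a count. In lines 1 and 3 its share was thus below its share of the genes, and in line 2 above it. Within the family the leader changed from Ighv1-74 in lines 1 and 3 to Ighv1-55 in line 2.

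The 4 genes of Ighv14 held 17.1%, 5.43% and 13%, and each of the 4 had a count in some line. Ighv8, with 9 genes, had 12, 6 and 19 counts, or 3.20%, 3.26% and 3.91%, an even share. Ighv5, with 11 genes, had 8, 5 and 0 counts. Ighv10 had 1, 3 and 1 counts, and Ighv11 had 1, 2 and 0. The families Ighv3, Ighv4, Ighv6, Ighv7, Ighv9, Ighv12, Ighv13, Ighv15 and Ighv16 were at 0 in all lines. This leaves out pseudogenes of these families, of which Ighv4-2 had 321 counts and Ighv3-2 had 1 count in line 2.

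Along the chromosome the Ighv genes lie 50.5 kb (Ighv5-2) to 2472 kb (Ighv1-85) from the D segments, and distal V segments depend on folding of the locus to reach them. The 115 genes were ordered by distance from the outermost D segment and divided into 4 blocks of 28 or 29 genes. Ighv2-3 is the 4th gene from D, at 83.1 kb, Ighv14-2 the 27th, at 466 kb, Ighv1-55 the 86th, at 1680 kb, and Ighv1-74 the 106th, at 2275 kb. The D-proximal block, from Ighv5-2 to Ighv14-3, held 70.4% of counts in line 1 (65.5 to 75.0), 33.2% in line 2 (26.4 to 40.5) and 65.0% in line 3 (60.6 to 69.3). In the third block, from Ighv1-12 to Ighv1-56, the shares were 12.3%, 53.8% (46.3 to 61.2) and 11.5%. Line 2 thus differed from both other lines in these blocks beyond counting error, but single leading genes weigh heavily in them. Of the 264, 61 and 316 proximal counts, Ighv2-3 alone held 188, 44 and 254. In the third block Ighv1-55 held 6 of 46, 73 of 99 and 1 of 56 counts.

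The second block held 2.13%, 5.43% and 4.73%, and the distal block 15.2%, 7.61% and 18.7%. Use did not fall steadily with distance, and in the distal block 20 of 28 genes had a count, against 10 of 29 in the proximal block, 5 of 29 in the second and 11 of 29 in the third. Of the distal counts, Ighv1-74 alone held 32 of 57 in line 1, 5 of 14 in line 2 and 46 of 91 in line 3. The gene farthest from D, Ighv1-85, was at 0 in all lines.

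**Figure D4:**
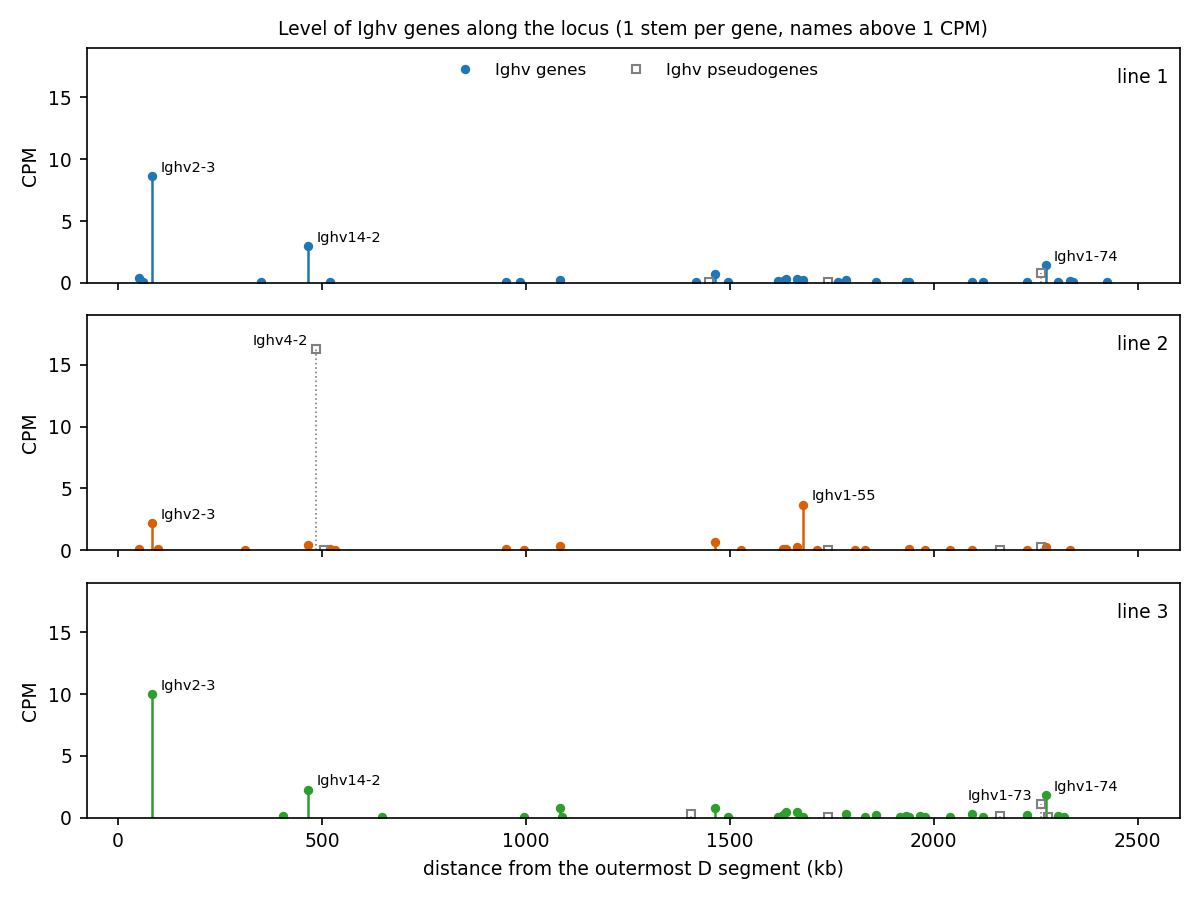
Level in CPM of each Ighv gene (filled circles) and Ighv pseudogene (open squares) against distance from the outermost D segment in kb, with 1 panel per line and names above 1 CPM. Lines 1 and 3 peak at Ighv2-3, at 83.1 kb, while line 2 has its highest gene, Ighv1-55, at 1680 kb and its highest row at the pseudogene Ighv4-2.

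Of all Ighv rows, the pseudogene Ighv4-2 had the widest range of CPM between the lines. It had 0, 321 and 0 counts, or 16.3 CPM in line 2. This was 118-fold higher than a floor of 3 counts in line 1 and 138-fold higher than that floor in line 3. Both ratios leave out the counting error of line 2. Per 1000 exon bases Ighv4-2 had 887 counts in line 2, against 176 for Ighv1-55, the leading gene of that line. Of its 50-base stretches, 34.8% were also found in another annotated transcript, all of them in Ighv4-1, which was at 0 in all 3 lines. Ighv4-2 lies between Ighv14-2 and Ighv14-3 in the proximal block. Ighv1-73, the row next to Ighv1-74, had 18, 5 and 28 counts and so had the high and low lines of its neighbour. Of the 70 pseudogenes 8 had a count, 2 were tested and both passed, against 66.8% of all genes tested.

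Because the reads are 50 bases long, the share of a gene's 50-base stretches that also occur in another annotated transcript was counted. It was 17.8% for Ighv2-3, 37.1% for Ighv14-2, 40.3% for Ighv1-74, 38.0% for Ighv1-55 and 0% for Ighv1-47, Ighv1-11 and Ighv5-2. Over the 115 genes, 20 shared none and 17 shared more than 50%. Among those 17 genes 9 had a count (52.9%), and among the other 98 genes 37 (37.8%). The median share was 23.5% for genes with a count and 20.9% for genes at 0. Whether reads that match several genes were counted is not given in the sources used here, so levels of Ighv14-2, Ighv1-74 and Ighv1-55 are less certain than that of Ighv2-3. Exons of Ighv1-62-1, with 1, 0 and 5 counts, overlap those of the long noncoding gene Gm19331 on the other strand, and whether counting used strand is not given.

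J segments, the next part of a rearranged gene, were counted in the same lines. Ighj1 was at 0 in all lines. Ighj2 had 1, 10 and 0 counts (adjusted p = 9.6e-05, chi-square test). Line 2 was 11.0-fold higher than line 1 (1.56 to 477) and 4.30-fold higher than a floor of 3 counts in line 3. The last ratio leaves out the counting error of line 2. Ighj4 had 17, 14 and 50 counts (adjusted p = 0.00014, chi-square test), 2.51-fold higher in line 3 than in line 1 (1.42 to 4.64). Ighj3 had 20, 10 and 19 counts and did not pass, with an adjusted p of 0.35 in the chi-square test. Lines 1 and 3, alike in their V genes, thus differed in Ighj4. Its share of J counts was 44.7% in line 1 (28.6 to 61.7) and 72.5% in line 3 (60.4 to 82.5), with intervals that overlap. Ighj2 held 29.4% in line 2 (15.1 to 47.5) against 2.63% and 0%. The exons of J segments are only 48 to 100 bases long, and the counts do not tie a J segment to a V segment. The 17 D segments had 14, 2 and 2 counts.

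Far more reads lay on the constant genes than on the V genes. Ighm, the µ constant region, had 30503, 27101 and 13597 counts, or 1405, 1373 and 534 CPM. Per 1000 exon bases it had 16173, 14370 and 7209 counts, which is 29.9 times, 81.7 times and 9.85 times the counts per 1000 exon bases of the line's leading V gene. In line 2 the counts of Ighv4-2 per 1000 exon bases were 887, against which Ighm was 16.2 times as high. For every 1000 Ighm counts there were 12.3, 6.79 and 35.7 counts on Ighv genes, and 12.9, 18.9 and 38.8 with pseudogenes added, so that line 2 was lowest only without the pseudogenes. Ighm RNA was therefore abundant in each line beside sparse counts on annotated V genes.

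Line 3 differed in its constant genes from line 1, despite the like use of V genes. Ighg2b, the γ2b constant region, had 681, 176 and 15831 counts, or 2.15%, 0.639% and 53.7% of the counts on heavy chain constant genes. Whether the Ighg2b counts come from class-switched genes was not tested. Ighm made up 96.5% and 98.4% in lines 1 and 2, and 46.1% in line 3. Ighd, the δ constant region, had 421, 250 and 38 counts. Igkc, the κ light chain constant region, had 90, 61 and 4986 counts. The J segments of the κ locus had 1, 5 and 98 counts. Line 3 was thus high for Ighg2b, Igkc and the κ J segments. The summed level of κ V genes was 22.0, 34.5 and 34.4 CPM. Of these sums Igkv14-111 alone made up 15.7, 27.8 and 17.6 CPM, so they do not show the order of the other κ V genes. A count was found for 27, 26 and 48 κ V genes in lines 1, 2 and 3.

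Genes that act in V(D)J recombination, the pre-B cell receptor and folding of the heavy chain locus were taken as the pathway around the V genes. Of 35 genes 34 were tested and 32 passed, or 94.1%, against 66.8% of all genes. Their median log2 distance between highest and lowest line, with 1 CPM added to each level, was 0.35, against 0.32 over all genes tested. Genes with many counts can pass this test on a small difference, as Xrcc5 did at 77.9, 85.2 and 78.2 CPM. Of the 32 passing genes, 5 were highest in line 1, 18 in line 2 and 9 in line 3. Over all genes, 2794, 2879 and 3668 of the 9341 that passed were highest in lines 1, 2 and 3. Rag1, the recombinase subunit that cuts DNA, stood at 22.4, 91.4 and 32.4 CPM, and its partner Rag2 at 12.4, 31.8 and 11.0 CPM. Line 2, with the lowest Ighv gene sum, thus had the highest levels of both. Dntt, which adds untemplated bases at the junctions, was low at 0.967, 1.62 and 4.28 CPM. Syk, the kinase downstream of the pre-B cell receptor, was at 145, 385 and 221 CPM, again highest in line 2. The surrogate light chain gene Vpreb1 was at 306, 353 and 322 CPM, a narrow range. Iglc1 and Nhej1 were tested and did not pass, and Iglc2 had too few counts. The part of these genes in the lines' V gene use was not tested.

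Genes around the locus were summarized by their median alone. They were 52 other genes of chromosome 12, from 5 Mb before the heavy chain constant genes to the chromosome end, with a minimum mean log2 level of 2. Their median log2 level relative to the 3-line average was -0.05, -0.0013 and 0.02 in lines 1, 2 and 3. Whether single genes among them went with the V genes was not tested. The 4 mature B cell markers summed to 161, 127 and 194 CPM and the 4 plasma cell markers to 264, 240 and 300 CPM. Cd22 (148, 121 and 171 CPM) and Xbp1 (231, 208 and 260 CPM) made up most of these sums, and other members had another order, such as Ms4a1 at 2.72, 1.42 and 0.432 CPM and Sdc1 at 12.9, 21.5 and 25.8 CPM. All 3 tested mature B cell markers and all 4 plasma cell markers passed the test, against 66.8% of all genes. Genes with many counts can do so on small differences, and the part of these markers in the Ighv levels was not tested.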

How the data were processed

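Polyadenylated RNA of 3 Cdk6 KM/KM lines was sequenced as 50-base single reads. The authors trimmed the reads, aligned them with STAR to mm10 and deposited whole-number counts per gene, summed over exons with featureCounts and not normalized; their settings for strand and for reads matching several genes are not given in the sources used here. Gene names and types came from Gencode M21, which matched 50462 of 50686 rows. Rows naming no gene numbered 0. The other 6 columns of values in the table were not used.

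CPM were computed with TMM factors from edgeR 4.0.16 (R 4.3.3). Shares carry Clopper-Pearson and sums exact Poisson 95% intervals (scipy 1.17.1), and a ratio of 2 lines carries the exact conditional interval. The homogeneity test covered the 13974 genes whose lines summed to 10 counts or more and was checked on simulated counts. Genes named were the 5 highest of each line, those passing the test, family leaders, the nearest and farthest gene from D, Ighj genes and listed genes; the other tested genes, Ighv4-2, Ighv1-72, Ighv1-62-1 and Ighv1-73 were named after their values were seen. The genes and lists were chosen with earlier results of these data known. Other size factors, filters, an exact test, added pseudogenes and leaving out lines were tried.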

Additional observations from a re-analysis of the deposited data

How the results depend on the processing

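Of 71 recomputed values 57 kept within the spread or within 1.5 times the count and 14 moved. The order of the lines turned in some of them: line 2, with the lowest summed level and the highest effective number as reported, had the highest sum with pseudogenes added, and the lowest effective number with pseudogenes added or with Ighv2-3 left out. With Ighv pseudogenes added, the mean summed level was 21.6 CPM, and in line 2 the leading share was 62.6% (Ighv4-2) and the effective number 2.38. With at least 10 counts required in every line, 2 Ighv genes could be tested and 1 passed (Ighv2-3), against 74.6% of all genes. Leaving out 1 line at a time gave 1 to 4 passing genes and a mean level of 13.4 to 18.1 CPM: Ighv2-3, Ighv14-2, Ighv1-74 and Ighv1-55 passed without line 1 or without line 3, and without line 2 Ighv1-11 did, where Ighv1-55 and Ighv5-2 had too few counts to be tested. With Ighv2-3 left out, an alternative chosen after seeing the data, the leading shares were 34.2% (Ighv14-2), 52.1% (Ighv1-55) and 25% (Ighv14-2) in lines 1, 2 and 3, the effective numbers 6.10, 3.41 and 7.80, and the share of the Ighv1 family 81.4% in line 2 and 64.2% in line 3. Some values that kept belong to another family. In line 2 with pseudogenes added, the leading family was Ighv4 at 62.6%, in place of Ighv1 at 62.0%. In line 1 with Ighv2-3 left out, it was Ighv1 at 52.4%, in place of Ighv2 at 50.9%. With genes under 3 counts left out, the effective number of line 2 was 3.35. The exact multinomial test passed 7 genes. Other size factors passed 6. The cause was not tested where a value moved by other than the removal of genes or lines itself.

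Depth limits the low genes: 3 counts are 0.617% to 1.63% of a line's Ighv counts. The search for 50-base stretches at 1 place in the genome was not run, and stretches were compared over annotated transcripts in its place. No paired analysis was possible because the 3 lines form 1 group and share no replicate number with another group used here.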

Other observations

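Counts on V genes of the κ light chain (Igkv) were spread unlike those of the heavy chain, in that 1 gene led all 3 lines. Igkv14-111 held 341 of 478 counts on the 100 Igkv genes in line 1, or 71.3% (exact 95% interval 67.1 to 75.4), 548 of 682 in line 2, or 80.4% (77.2 to 83.3), and 449 of 877 in line 3, or 51.2% (47.8 to 54.6). On Igkc there were 90, 61 and 4986 counts, fewer than on Igkv14-111 alone in lines 1 and 2. Whether the Igkv counts come from joined κ genes was not tested. The effective number of Igkv genes was 1.92, 1.54 and 3.44. Line 2 was thus the most concentrated for Igkv and line 3, with the most Igkc counts, the least. For Ighv line 2 was the least concentrated over all 115 genes and the most concentrated with Ighv2-3 left out. In line 3 48 Igkv genes had a count, against 27 and 26 in lines 1 and 2. Of 14 Igkv genes tested 9 differed between the lines by the chi-square test with Benjamini-Hochberg adjustment, against 66.8% of all genes tested. The 3 Iglv genes of the λ light chain had 0, 3 and 3 counts. What the lines' κ and heavy chain use share was not tested.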
